A study of Mus musculus with 8 samples.

Results

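Plasmin and the matrix metalloproteinases are followed here through 9 genes of mouse hepatocytes: the plasminogen activators Plau and Plat, the urokinase receptor Plaur, the activator inhibitor Serpinb2, the metalloproteinases Mmp9, Mmp13, Mmp14 and Mmp24, and the metalloproteinase inhibitor Timp1. Members were chosen by gene symbol, taking each probe set (the group of probes that reads 1 transcript) whose platform annotation names exactly 1 of these genes. That gave 16 probe sets for the 9 genes, of 18194 genes with a probe set of a single symbol. Where a gene had several probe sets, the one with the highest mean normalised intensity over the 8 arrays stood for it. Those means were 579 against 156 and 69.4 for Mmp14, 487 against 12 for Plat, 117 against 56.9 for Mmp9, 105 against 39 and 9.19 for Mmp24, and 18 against 6.25 for Plau. The genes were also picked with earlier results of these arrays known, so their differences between groups describe this set and are no independent evidence about it.

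Hepatocytes, which carry out most of the liver's metabolism, were taken as primary cells from mice without transglutaminase 2 (KO) and from wild-type mice (WT), all of a mixed C57BL6/129SVJ background. Transglutaminase 2, encoded by Tgm2, crosslinks proteins, and the labels do not name the deleted part of the gene. Cells were kept for 15 h with 100 mM ethanol or without it, which makes 4 groups: KO with ethanol, WT with ethanol, KO without ethanol and WT without ethanol. Each group has 2 arrays, A and B, and each array gave 1 linear signal intensity per probe set. Values in the text are intensities after quantile normalisation, array A before array B, unless they are named log2 differences. A log2 difference is between group means of log2(intensity + 16), given ± its standard error (SE) from a limma fit with n = 2 arrays per group, and it understates the change of a dim gene. Adjusted p-values are limma's, by the Benjamini-Hochberg method over all 19814 probe sets bright enough to be tested, and genes with an adjusted p under 0.05 are called. The labels do not say whether A and B came from separate animals or cultures, so these p-values measure only the spread between arrays, which may be technical.

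Several array features bear on what follows. For both B arrays with ethanol, KO and WT, the treatment text describes an incubation without ethanol whereas their titles and source names say 100 mM. Group membership follows the titles, and calls of the brightest probe sets that use these arrays are also given without them, for listed genes by count. KO with ethanol B correlated more with KO without ethanol A and B (0.973 and 0.972) than with KO with ethanol A (0.967). In contrast, WT with ethanol B correlated more with WT with ethanol A (0.986) than with WT without ethanol A and B (0.975 and 0.982). Brightness was uneven: trimmed means were 99.15 to 103.6 on the 2 KO arrays without ethanol and on KO with ethanol A, and 199.6 to 298.9 on the remaining 5. Pcx, read at its 3′ and its 5′ end as a measure of RNA length, had a 3′ over 5′ signal of 4.91 and 5.45 in KO with ethanol, 26.7 and 44.5 in WT with ethanol, 10.6 and 8.69 in KO without ethanol, and 10 and 16.8 in WT without ethanol. Tgm2 itself read 2.19% to 4.19% of the WT mean on the KO arrays. Hepatocyte markers summed to 75500 to 80600 on all 8 arrays. In bulk RNA, fewer cells of a type and less RNA per cell cannot be told apart.

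Plasminogen is made by hepatocytes and circulates as an inactive precursor. Urokinase (Plau), held at the cell surface by its receptor, and tissue-type activator (Plat) cut it to plasmin, the protease that dissolves fibrin and also activates some metalloproteinase precursors. Serpins such as Serpinb2 block the activators, metalloproteinases digest collagen, gelatin and other matrix proteins, and TIMPs such as Timp1 block the metalloproteinases. In injured liver these proteases are known for clearing fibrin and remodelling matrix, and much of the metalloproteinase output is attributed to non-hepatocyte cells.

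Loss of Tgm2 in cells kept without ethanol went with more Serpinb2, Mmp13, Mmp9, Plat and Plaur RNA on their brightest probe sets. Mmp14 RNA was lower on its brightest probe set, while its other probe sets gave -0.01 and -0.04 and were not called. Serpinb2 had the widest gap of the 9 genes and Timp1 the narrowest. Of the 9 members, 8 were bright enough to be tested, 5 were called higher in KO cells, 1 was called lower, and 2 were not called. Of all probe sets tested in this comparison, 15.3% were called higher and 16.9% lower. The median log2 difference was 0.77 over the 9 members, against -0.035 over all probe sets tested. Because the genes were picked with these results known, nothing is read from either contrast of counts.

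Serpinb2, also known as plasminogen activator inhibitor type 2, is a serpin that blocks urokinase and tissue-type activator. It read 429 and 444 in KO cells without ethanol, against 18.3 and 21.5 in WT cells without ethanol. Both WT values lie close to the offset of 16, and both KO values stand far above them. The log2 difference was 3.66 ± 0.37 (12.6-fold, adjusted p = 1e-04). It stood at 2.58 with an offset of 64 and at 4.39 with an offset of 1. The gene passed the intensity filter of 5.4 on the log2 scale through the KO arrays without ethanol, where its mean was 8.82, while the other groups averaged 5.65 in KO with ethanol, 4.39 in WT with ethanol and 5.16 in WT without ethanol.

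**Figure D1:**
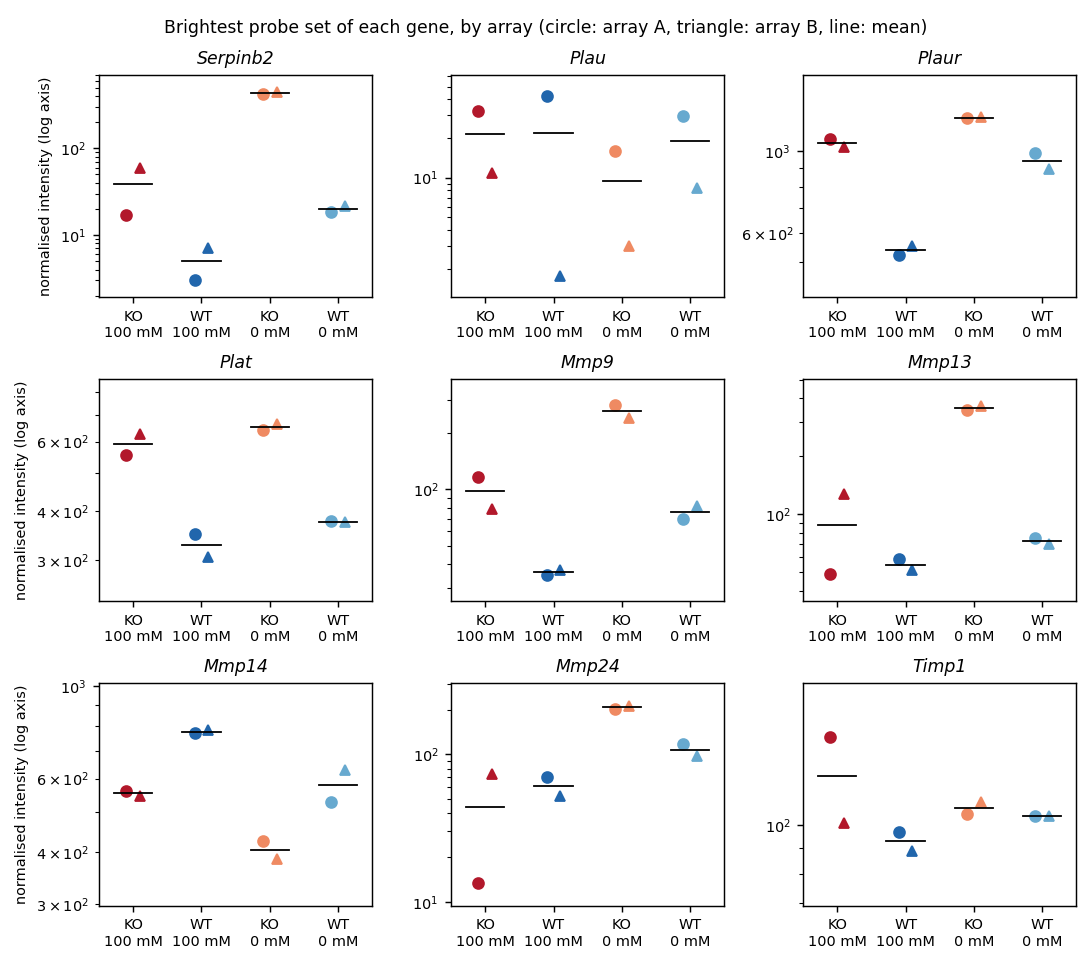
Normalised intensity of each gene's brightest probe set on the 8 arrays (log axes with their own range in each panel), for KO and WT cells with 100 mM ethanol and then KO and WT cells with 0 mM. Circles are arrays A, triangles arrays B and lines group means; Serpinb2 sits at 429 and 444 in KO cells without ethanol and at 60.1 or below on every other array.

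The receptor and 1 of the activators were higher in KO cells. Plaur, which anchors urokinase at the cell surface, read 1230 and 1240 in KO cells against 989 and 896 in WT cells. Its log2 difference was 0.39 ± 0.088 (1.31-fold, adjusted p = 0.0083), the smallest of the 5 called higher, and the KO arrays lay above both WT arrays. That call was lost without KO A (0.39, adjusted p = 0.052), without KO B (0.38, adjusted p = 0.057) or without WT B (0.32, adjusted p = 0.078). Plat, the tissue-type activator, read 641 and 667 in KO cells against 376 and 375 in WT cells. The difference of 0.77 ± 0.11 (1.71-fold, adjusted p = 8e-04) was large beside the spread of either pair of arrays. A second Plat probe set read 20.5 and 5.76 in KO cells against 16.4 and 8.51 in WT cells and was not tested, because 1 array with ethanol gave no usable value for it.

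Plau was too dim to test. Its brighter probe set read 15.9 and 3.01 in KO cells against 29.5 and 8.39 in WT cells, and the other read 12.1 and 17.2 in KO cells against 12.1 and 1.13 in WT cells. On the brighter probe set, the A and B arrays of each genotype differed by more than the genotypes did.

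Both secreted metalloproteinases were higher in KO cells. Mmp13, the main interstitial collagenase of the mouse, read 349 and 366 in KO cells against 75.3 and 70.2 in WT cells. Its log2 difference of 2.07 ± 0.32 (4.21-fold, adjusted p = 0.001) was the second widest of the 9 genes. Mmp9, or gelatinase B, read 279 and 240 in KO cells against 69.7 and 81.5 in WT cells, a difference of 1.59 ± 0.22 (3.01-fold, adjusted p = 6.3e-04). Its second probe set read 143 and 133 in KO cells against 29.1 and 55.4 in WT cells and was also called higher, by 1.44 ± 0.32 (adjusted p = 0.0071).

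The membrane-anchored metalloproteinases took different courses. Mmp14, which cuts collagen at the cell surface and activates the precursor of gelatinase A, read 426 and 386 in KO cells against 529 and 628 in WT cells. It was the 1 member called lower, at -0.49 ± 0.11 (adjusted p = 0.0078). The call was lost without KO B (-0.42, adjusted p = 0.067) or WT B (-0.37, adjusted p = 0.077). It was also not shared by its dimmer probe sets, which differed by -0.01 and -0.04 and read 141 and 189 in KO cells against 168 and 162 in WT cells, and 53.6 and 69.2 in KO cells against 54.5 and 73.3 in WT cells. Mmp24, a membrane-type enzyme known best from the nervous system, read 203 and 212 in KO cells against 117 and 97.3 in WT cells. Its arrays did not overlap, but the difference of 0.86 ± 0.43 was not called (adjusted p = 0.16), since 1 spread is fitted per probe set and the KO arrays with ethanol lay far apart. Without KO with ethanol A the adjusted p was 0.0051, and without KO with ethanol B it was 0.0069. A dimmer Mmp24 probe set read 67 and 65.6 in KO cells against 20.9 and 34.5 in WT cells and was called higher, by 0.93 ± 0.3 (adjusted p = 0.038). The remaining Mmp24 probe set was not tested and read 26.5 and 1.04 in KO cells against 4.08 and 2.25 in WT cells.

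Timp1, which blocks most secreted metalloproteinases and binds the precursor of Mmp9, read 105 and 111 in KO cells against 104 and 104 in WT cells. The difference of 0.05 ± 0.21 (adjusted p = 0.88) was within the error, while both secreted enzymes were higher. No ratio of enzyme to inhibitor was formed, since intensities of different probe sets cannot be set against each other.

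**Figure D2:**
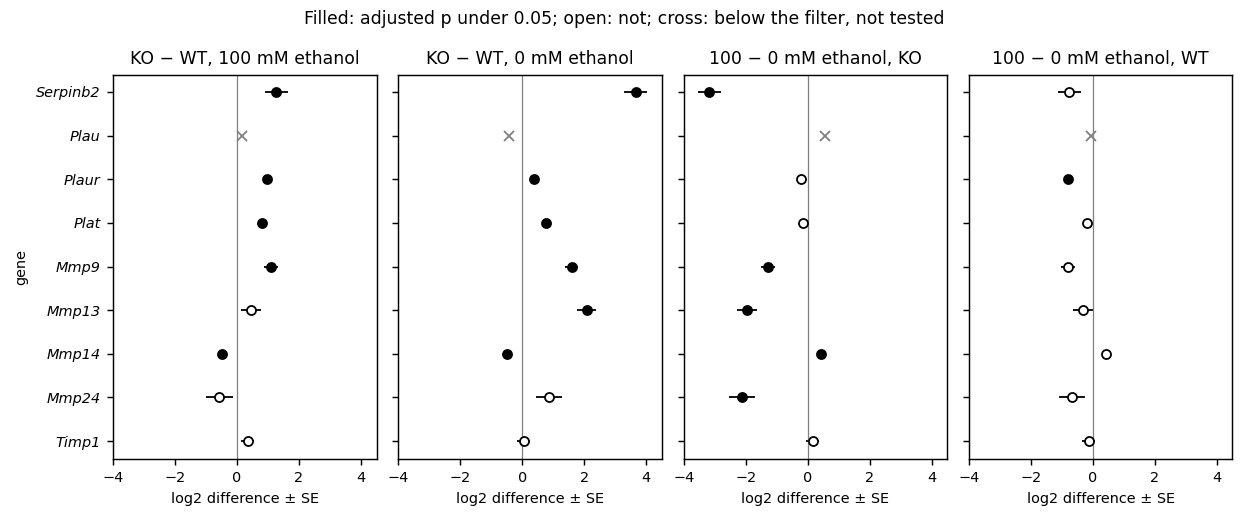
Log2 difference ± SE of each gene's brightest probe set (horizontal axis) in 4 comparisons, left to right KO minus WT with 100 mM ethanol, KO minus WT with 0 mM, 100 minus 0 mM ethanol in KO, and 100 minus 0 mM ethanol in WT. Filled points were called at an adjusted p under 0.05, open points were not, and crosses were too dim to test; Serpinb2 lies at 3.66 in KO minus WT without ethanol and at -3.17 for ethanol in KO.

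Promoter sequence is shown for the 2 genes with the widest gaps without ethanol, Serpinb2 and Mmp13, for the receptor Plaur, and for Mmp14, the 1 member called lower. RefSeq windows of GRCm38.p6, all on the plus strand, were found for 6 of the 9 genes. Each runs 5′ to 3′ over the 250 bases before an annotated transcript start. That start lies inside the annotated span of the gene for Serpinb2 and Plaur, and at the beginning of the span for Mmp13 and Mmp14. Serpinb2 has 2 such windows, from starts close together, and the upstream one is shown. Capitals mark matches to the motifs searched.
Serpinb2, chr1:107511173-107511422: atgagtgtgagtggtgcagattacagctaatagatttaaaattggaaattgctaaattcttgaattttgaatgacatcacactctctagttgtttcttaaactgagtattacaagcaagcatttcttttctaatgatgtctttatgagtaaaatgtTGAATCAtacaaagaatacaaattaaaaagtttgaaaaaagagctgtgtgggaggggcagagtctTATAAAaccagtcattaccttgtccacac
Plaur, chr7:24462233-24462482: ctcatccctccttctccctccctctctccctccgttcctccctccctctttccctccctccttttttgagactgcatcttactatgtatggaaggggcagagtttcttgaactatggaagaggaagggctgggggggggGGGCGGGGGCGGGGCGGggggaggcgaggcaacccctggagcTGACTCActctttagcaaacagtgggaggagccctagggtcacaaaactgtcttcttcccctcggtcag
Mmp13, chr9:7272264-7272513: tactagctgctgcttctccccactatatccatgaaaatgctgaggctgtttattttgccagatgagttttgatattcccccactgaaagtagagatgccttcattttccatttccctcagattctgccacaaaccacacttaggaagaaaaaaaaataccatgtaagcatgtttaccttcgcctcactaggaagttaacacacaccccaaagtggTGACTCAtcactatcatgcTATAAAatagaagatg
Mmp14, chr14:54431348-54431597: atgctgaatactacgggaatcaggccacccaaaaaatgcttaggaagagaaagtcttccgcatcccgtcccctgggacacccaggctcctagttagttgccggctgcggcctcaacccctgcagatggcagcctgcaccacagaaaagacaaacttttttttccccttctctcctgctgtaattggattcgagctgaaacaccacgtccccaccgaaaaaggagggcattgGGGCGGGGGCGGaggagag

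The motifs were the AP-1 site TGANTCA, the GC box GGGCGG bound by Sp1, the TATA box TATAAA, and the NF-kB site by its name, each searched on both strands. The AP-1 pattern is its own reverse complement, so each match is found on both strands and was counted once. Counted back from the transcript start, Serpinb2 held TGAATCA at 94 to 88 bases and a TATA box at 29 to 24. Mmp13 held TGACTCA at 35 to 29 and a TATA box at 16 to 11. In Plaur, TGACTCA lay at 69 to 63, downstream of 3 GC boxes between 111 and 95, of which the middle and the last share a base. Mmp14 held 2 GC boxes at 19 to 14 and 13 to 8 and no AP-1 match in this window. Mmp24 held 3 GC boxes and Timp1 held 1, and no NF-kB match was found in the 6 windows. Among all 32851 windows of this length, 6.75% held an AP-1 match, 32.7% a GC box, 12.4% a TATA box and 3.9% an NF-kB match. Base composition differed, with 32.4% G and C in Serpinb2, 40.4% in Mmp13, 55.2% in Mmp14 and 59.6% in Plaur. A match is a run of letters and not a measured binding site.

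With ethanol in both genotypes, Plaur, Mmp9, Plat and Serpinb2 were higher in KO cells on their brightest probe sets. Mmp14 was lower on its brightest probe set, while Mmp13 was not called. Of the 8 members tested, 4 were called higher, 1 lower and 3 not, beside 14% higher and 15.1% lower of all probe sets tested. The median log2 difference was 0.45 over the 9 members and -0.047 over all probe sets tested. By count, 2777 probe sets were called higher and 2993 lower, while trimmed-mean scaling gave 3394 and 1722, and keeping unusable values as missing gave 3142 and 1782. Under trimmed-mean scaling the median of all probe sets was 0.147, so the scaling shifts this comparison by more than 0.1, and likewise the median for ethanol in WT (-0.106 against 0.014) and for the difference of the ethanol effects (0.171 against -0.01).

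Plaur had the largest gap in relation to its error. It read 1080 and 1030 in KO cells with ethanol against 524 and 554 in WT cells with ethanol, and the log2 difference was 0.95 ± 0.088 (1.93-fold, adjusted p = 6.9e-05). Without the B arrays it was 1.03 (adjusted p = 7.5e-04). Plat read 555 and 629 in KO cells against 350 and 306 in WT cells. It differed by 0.82 ± 0.11 (1.77-fold, adjusted p = 6.7e-04), and by 0.64 without the B arrays (adjusted p = 0.0094). The second Plat probe set gave 7.73 and 18.3 in KO cells against 6.94 on the single usable WT array. Plau read 32.3 and 10.8 in KO cells against 42.2 and 1.77 in WT cells on its brighter probe set, and 2.86 and 1.56 in KO cells against 1.12 and 1.97 in WT cells on the dimmer one, again untested.

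Serpinb2 read 17.2 and 60.1 in KO cells against 3.07 and 7.04 in WT cells. All 4 values were far below the KO level without ethanol, and the KO arrays lay above both WT arrays. The log2 difference was 1.26 ± 0.37 (2.4-fold, adjusted p = 0.029), and 0.8 without the B arrays (adjusted p = 0.082). The call was lost in 11 of 21 alternatives. Left out singly, KO with ethanol B gave 0.66 (adjusted p = 0.091) and KO with ethanol A gave 1.86 (adjusted p = 0.0013), while leaving out either WT array with ethanol gave 1.12 (adjusted p = 0.14) or 1.4 (adjusted p = 0.078). Leaving out either KO array without ethanol kept 1.26 and ended the call (adjusted p = 0.06 and 0.061).

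Mmp9 read 117 and 79 in KO cells with ethanol against 35.2 and 37.5 in WT cells with ethanol, a difference of 1.1 ± 0.22 (2.14-fold, adjusted p = 0.0054). Without the B arrays it was 1.37 (adjusted p = 0.0056). The second Mmp9 probe set read 29 and 39.7 in KO cells against 8.09 and 17.7 in WT cells and missed the threshold, at 0.81 ± 0.32 (adjusted p = 0.084). Mmp13 read 48.8 and 127 in KO cells against 58.5 and 51.2 in WT cells. KO A lay below both WT arrays and KO B above them, and the difference of 0.45 ± 0.32 was not called (adjusted p = 0.33). Its sign depended on 1 array, at -0.13 without KO with ethanol B and 1.02 without KO with ethanol A (adjusted p = 0.0043), and it was -0.2 without both B arrays. Under trimmed-mean scaling Mmp13 was called higher (0.86, adjusted p = 0.042).

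Mmp14 read 562 and 544 in KO cells with ethanol against 771 and 785 in WT cells with ethanol. The log2 difference was -0.48 ± 0.11 (adjusted p = 0.01), and -0.44 without the B arrays (adjusted p = 0.07). Leaving out WT with ethanol A or B alone also ended the call (-0.49 and -0.47, adjusted p = 0.054 and 0.065). Its other probe sets were not called: one read 132 and 169 in KO cells against 147 and 137 in WT cells, and the other read 43 and 66.5 in KO cells against 98.8 and 95.9 in WT cells (-0.7 ± 0.26, adjusted p = 0.069). Mmp24 read 13.5 and 73.9 in KO cells against 70 and 52 in WT cells, so that the WT pair lay inside the range of the KO pair. The difference of -0.57 ± 0.43 (adjusted p = 0.36) became -1.37 without KO with ethanol B (adjusted p = 0.0025), -1.54 without both B arrays (adjusted p = 0.0041) and 0.23 without KO with ethanol A. The dimmer Mmp24 probe sets read 32.3 and 25.9 in KO cells against 26.4 and 39.7 in WT cells, and 6.06 and 3.87 in KO cells against 6.31 and 23.4 in WT cells. Timp1 read 149 and 101 in KO cells against 96.8 and 88.7 in WT cells, with a difference of 0.35 ± 0.21 that was not called (adjusted p = 0.24) and that reached 0.6 without KO with ethanol B (adjusted p = 0.034) and 0.54 without both B arrays (adjusted p = 0.11).

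**Figure D3:**
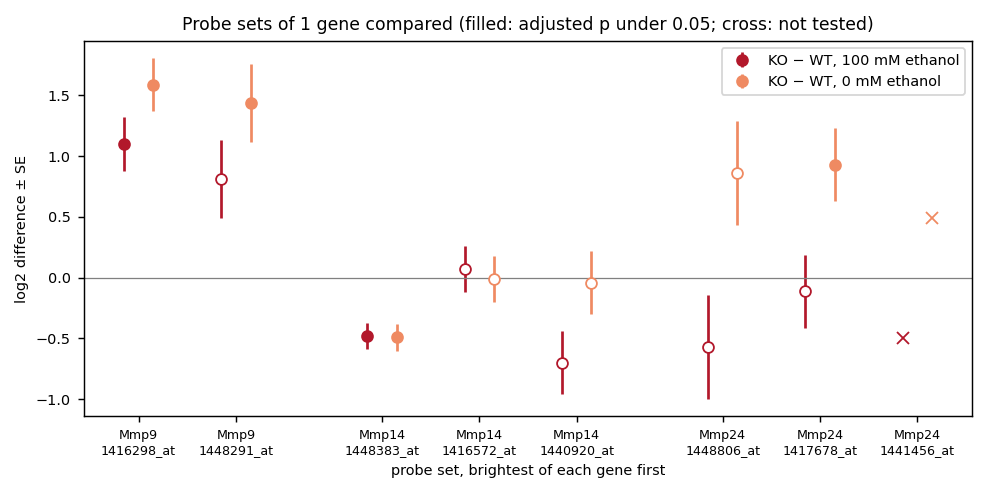
Log2 difference ± SE of KO minus WT (vertical axis) with 100 mM and with 0 mM ethanol for each probe set of Mmp9, Mmp14 and Mmp24, brightest first. Filled points were called, open points were not and crosses were too dim to test; the Mmp9 probe sets lie at 1.59 and 1.44 without ethanol, whereas the Mmp14 probe sets lie at -0.49, -0.01 and -0.04.

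On their brightest probe sets, Serpinb2, Mmp24, Mmp13 and Mmp9 were lower with ethanol in KO cells and Mmp14 was higher. The other Mmp14 probe sets gave -0.12 and -0.14 and were not called. Of the 8 members tested, 1 was called higher, 4 lower and 3 not, beside 11.4% higher and 10.8% lower of all probe sets tested. The median log2 difference was -0.23 over the 9 members and -0.0054 over all probe sets tested. This comparison shares the KO arrays without ethanol with the comparison of genotypes without ethanol, so the high values on those arrays enter both. The KO arrays with ethanol likewise enter this comparison and that of genotypes with ethanol.

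Serpinb2 stood at 17.2 and 60.1 in KO cells with ethanol, against 429 and 444 in KO cells without it. This gene passed the intensity filter through the KO arrays without ethanol, the baseline here, so the filter favoured a fall. The log2 difference was -3.17 ± 0.37 (adjusted p = 7.8e-04), a level 9-fold lower on this scale. It was -3.77 without the B arrays (adjusted p = 3e-04) and -2.57 without KO with ethanol A (adjusted p = 0.0011). Mmp13, at 48.8 and 127 against 349 and 366, fell by 1.96 ± 0.32 on the log2 scale (adjusted p = 0.0031), and the value was -2.53 without the B arrays (adjusted p = 3.8e-04). Mmp9, at 117 and 79 against 279 and 240, fell by 1.29 ± 0.22 (adjusted p = 0.0041), and the value was -1.05 without the B arrays (adjusted p = 0.0077). Its second probe set gave -1.62 ± 0.32 (adjusted p = 0.0072).

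Mmp24, at 13.5 and 73.9 against 203 and 212, fell by 2.12 ± 0.43 (adjusted p = 0.008). The 2 arrays with ethanol differed widely, and the value was -2.92 without the B arrays (adjusted p = 3.5e-04) and -1.31 without KO with ethanol A (adjusted p = 0.0061). Leaving out KO without ethanol A or B ended this call (adjusted p = 0.057 and 0.06). The brighter of its other probe sets gave -0.87 ± 0.3 and was not called (adjusted p = 0.063). Mmp14, at 562 and 544 against 426 and 386, rose by 0.43 ± 0.11 (1.35-fold, adjusted p = 0.022), and by 0.46 without the B arrays (adjusted p = 0.034). That call ended without KO without ethanol A (0.5, adjusted p = 0.066), KO without ethanol B (0.37, adjusted p = 0.14) or KO with ethanol A (0.41, adjusted p = 0.063), and neither other Mmp14 probe set was called. Plaur gave -0.23 ± 0.088 (adjusted p = 0.094), Plat -0.14 ± 0.11 (adjusted p = 0.4) and Timp1 0.16 ± 0.21 (adjusted p = 0.62). Without the B arrays these 3 were -0.19, -0.23 and 0.41, also not called (adjusted p = 0.14 to 0.16).

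For ethanol in WT cells 1 member was called, Plaur, which was lower. Of the 8 members tested, 0 were called higher and 1 lower in limma, beside 1.67% higher and 3.91% lower of all probe sets tested. By count, 330 probe sets were called higher and 775 lower, while trimmed-mean scaling gave 99 and 967, and keeping unusable values as missing gave 88 and 893. Mmp14 on the higher side and Mmp9 on the lower also had an unadjusted limma p under 0.05. The median log2 difference was -0.33 over the 9 members and 0.014 over all probe sets tested. Plaur stood at 524 and 554 in WT cells with ethanol, against 989 and 896 in WT cells without it. It fell by 0.79 ± 0.088 (adjusted p = 0.0015), and the value was -0.83 without the B arrays (adjusted p = 0.0044). Mmp9 gave -0.8 ± 0.22 (adjusted p = 0.072) and was called without KO with ethanol A or B, which enter the shared spread (adjusted p = 0.022 and 0.021), and under trimmed-mean scaling (-0.98, adjusted p = 0.046). Mmp14 gave 0.42 ± 0.11 (adjusted p = 0.06) and was called under the same omissions (adjusted p = 0.037 for both). Serpinb2 gave -0.77 ± 0.37 (adjusted p = 0.3) at values of 3.07 and 7.04 with ethanol against 18.3 and 21.5 without, around and below the offset. Mmp13 gave -0.33 ± 0.32, Mmp24 -0.68 ± 0.43, Plat -0.19 ± 0.11 and Timp1 -0.14 ± 0.21. The dimmer Mmp24 probe sets went the other way, at 0.17 ± 0.3 (adjusted p = 0.85) and at 0.63, which was not tested. Those of Mmp14 gave -0.19 ± 0.19 (adjusted p = 0.68) and 0.51 ± 0.26 (adjusted p = 0.33). Without the B arrays Mmp9 was -0.84, Mmp14 0.41 and Serpinb2 -0.91 (adjusted p = 0.067 to 0.14), and none of the other 4 uncalled members was called (adjusted p = 0.24 to 0.86).

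**Figure D4:**
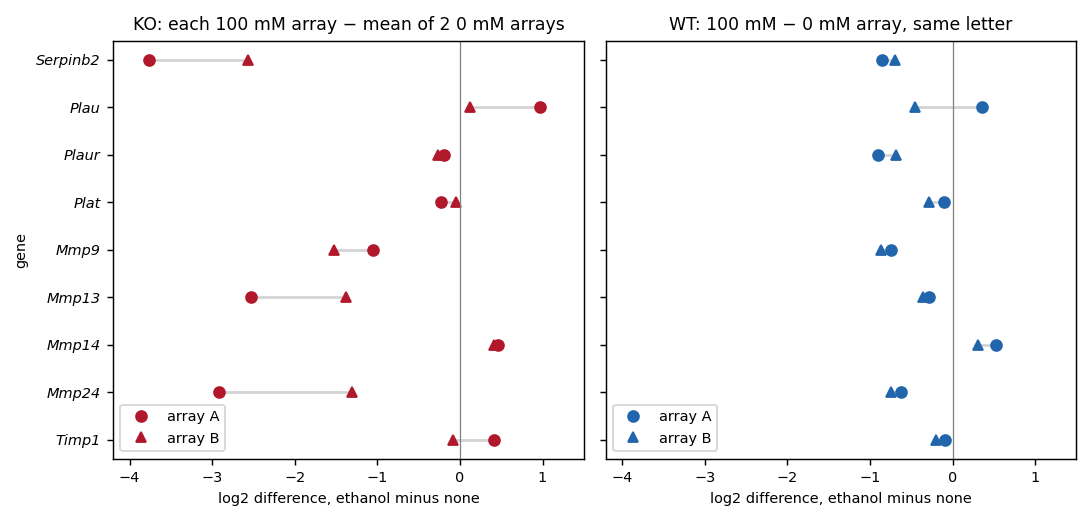
Log2 difference with minus without ethanol (horizontal axis) for each gene and each array with ethanol. In KO cells (left) each array is set against the mean of both arrays without ethanol and in WT cells (right) against the array of its own letter; Serpinb2 lies at -3.77 and -2.57 in KO and at -0.85 and -0.7 in WT, and Mmp24 at -2.92 and -1.31 in KO.

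Whether ethanol acted differently in KO and WT cells was tested as the difference of the 2 ethanol effects. Serpinb2 and Plaur were the 2 members called, in opposite directions, and 6 tested members were not, beside 5.35% of all probe sets called in either direction. Of these, 708 were higher in KO and 353 lower, while trimmed-mean scaling gave 785 and 187, and keeping unusable values as missing gave 694 and 121. Serpinb2 entered the test through its level in KO cells without ethanol, and with no filter neither gene was called (adjusted p = 0.071 for Serpinb2 and 0.059 for Plaur). For Serpinb2 the KO effect minus the WT effect was -2.4 ± 0.52 on the log2 scale (adjusted p = 0.032), and -2.86 without the B arrays (adjusted p = 0.0052). For Plaur the KO effect was higher by 0.56 ± 0.13 (adjusted p = 0.035), and by 0.64 without the B arrays (adjusted p = 0.023). The Serpinb2 call was lost in 10 of 19 alternatives, among them an offset of 1 (-1.85, adjusted p = 0.24) and the omission of any array other than the KO arrays with ethanol (-2.26 to -2.53, adjusted p = 0.082 to 0.13). The Plaur call was lost in 10 of 20, among them the omission of any array other than KO with ethanol B (0.49 to 0.63, adjusted p = 0.05 to 0.15). For Mmp13 the difference was -1.63 ± 0.45 (adjusted p = 0.069) and was called with an offset of 64 (-1.32, adjusted p = 0.036), without KO with ethanol A (-1.06, adjusted p = 0.039), without KO with ethanol B (-2.2, adjusted p = 0.0017) and without both B arrays (-2.27, adjusted p = 0.0046). Mmp24 gave -1.43 ± 0.6 (adjusted p = 0.2), and -2.24 without KO with ethanol B (adjusted p = 0.003) or -2.41 without both B arrays (adjusted p = 0.0052). Mmp9 at -0.49, Plat at 0.05, Mmp14 at 0.01 and Timp1 at 0.3 were not called (adjusted p = 0.39 to 0.97).

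Arrays also differed in bioC over bioB, a ratio of 2 spike-in controls, which was 0.79 to 1.54 on the A arrays of WT without ethanol and of both ethanol groups and 3.59 to 4.67 on the other 5. Within the arrays of the higher ratio, KO minus WT without ethanol sets both KO arrays against WT B alone. It was 3.59 for Serpinb2, 2.12 for Mmp13, 1.5 for Mmp9, 0.78 for Plat, 0.46 for Plaur and -0.61 for Mmp14. These and the values below are differences of log2 values with no test. With ethanol, KO minus WT within the lower-ratio pair (A) and within the higher-ratio pair (B) was 0.8 and 1.72 for Serpinb2, 1.03 and 0.87 for Plaur, 0.64 and 1 for Plat, 1.37 and 0.83 for Mmp9, and -0.44 and -0.52 for Mmp14. Mmp13 (-0.2 and 1.09) and Mmp24 (-1.54 and 0.4) differed in sign between the pairs. Ethanol minus none in KO could be formed within the higher ratio alone, where KO B is the only KO array with ethanol. The treatment text of that array describes an incubation without ethanol. It also correlated more with the KO arrays without ethanol than with KO with ethanol A. The values were -2.57 for Serpinb2, -1.53 for Mmp9, -1.38 for Mmp13, -1.31 for Mmp24 and 0.41 for Mmp14.

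The genes whose profile was most like each member's were sought by Pearson's r of log2 values over the 8 arrays, which fall into 4 groups and share their normalisation. For Serpinb2 these were Seh1l (0.997), Nufip2 (0.993) and Rab6a (0.992). Mmp13 was nearest to Fbxo11 (0.994), Lin7c (0.993) and Trappc6b (0.992), Mmp9 to Usp15 (0.993), B230219D22Rik (0.99) and Spidr (0.988), and Mmp24 to Ccne2 (0.995), Krr1 (0.99) and Cbx1 (0.988). Plaur was nearest to Sfr1 (0.99), Tnfrsf23 (0.987) and Me1 (0.985), and Plat to Cpe (0.99), Dpyd (0.99) and Vegfa (0.989). Mmp14 was nearest to Mtres1 (0.988), Tor1b (0.987) and Tmem268 (0.986). Timp1, whose groups differed least, had its nearest profiles in Zwint (0.966), Apold1 (0.96) and Lamp2 (0.948).

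Other genes of the system moved in both directions. Of 70 listed genes, 12 were not analysed here, 58 were measured and 43 were tested. KO cells without ethanol had 10 called higher and 11 lower (median log2 difference 0.07), and with ethanol 9 higher and 8 lower (median 0.13). Of all probe sets tested, 15.3% were called higher and 16.9% lower without ethanol, and 14% and 15.1% with it. In KO cells 9 were higher with ethanol and 3 lower, in WT cells 1 higher and 4 lower, and the ethanol effect differed between the genotypes for 2. The shares of all probe sets tested were 11.4% higher and 10.8% lower in KO cells, 1.67% and 3.91% in WT cells, and 5.35% for the difference of the effects. Without the B arrays with ethanol, 12 of the 17 calls between genotypes with ethanol passed again, as did 12 of 12 for ethanol in KO, 2 of 5 for ethanol in WT and 2 of 2 for the difference of the effects. The calls lost were Plg (-0.18), Serpinb6b (0.39), Serping1 (0.15), Klkb1 (-0.55) and F11 (-0.17) between genotypes with ethanol (adjusted p = 0.096 to 0.47), and Serpinb6b (-0.62), Klkb1 (0.62) and Adam9 (-0.32) for ethanol in WT (adjusted p = 0.053 to 0.13).

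Plasminogen was lower in KO cells without ethanol, and its cofactors and inhibitors were called in both directions. Plg, plasminogen itself, read 6540 and 6750 in KO cells against 8120 and 8880 in WT cells, a log2 difference of -0.35 ± 0.069 (adjusted p = 0.0038), and with ethanol -0.25 ± 0.069 (adjusted p = 0.023). Of the 5 plasminogen and cofactor genes tested, S100a10, a plasminogen-binding protein of the cell surface, was higher (0.46) and Vtn, the matrix protein vitronectin that binds the urokinase receptor, lower (-0.39), while 2 were not called. Serpinf2, or alpha2-antiplasmin, the main plasma inhibitor of plasmin, read 1240 and 1530 in KO cells against 3070 and 3020 in WT cells (-1.14 ± 0.095, adjusted p = 3.7e-05). Among the 6 tested inhibitors, Serpinb6a, an intracellular serpin, was also lower (-1.3 ± 0.069, adjusted p = 2.6e-06), and Serpinb6b (1.12 ± 0.13) and the broad protease inhibitor Pzp (0.35) were higher. With ethanol, S100a10 (0.69), Pzp (0.67) and the C1 inhibitor gene Serping1 (0.23) were higher in KO cells, and Serpinf2 (-0.76) and Serpinb6a (-1.16) lower.

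The next list holds contact and hepatic serine proteases together with kininogen. Of its 6 genes tested, 4 were called lower in KO cells without ethanol and 0 higher. Of all probe sets tested, 16.9% were called lower there and 15.3% higher. Hpn, the membrane protease hepsin, read 520 and 478 in KO cells against 1160 and 1350 in WT cells (-1.3 ± 0.12, adjusted p = 5.1e-05). F11 (-0.53), F12 (-0.49) and the hepatocyte growth factor activator Hgfac (-0.36) were the others. With ethanol 3 were lower in KO cells: Hpn (-0.71), the plasma prekallikrein gene Klkb1 (-0.7) and F11 (-0.47). Ethanol raised 4 of the 6 in KO cells, Hpn by 0.78, F12 by 0.65, Hgfac by 0.56 and the kininogen gene Kng1 by 0.28, and 1 in WT cells, Klkb1, by 0.79. The ethanol effect on Hgfac was higher in KO than in WT cells by 0.51 ± 0.11 (adjusted p = 0.035).

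The other metalloproteinases were mostly dim. Of 14 measured, 4 were bright enough to test (Mmp7, Mmp12, Mmp17 and Mmp19), and limma called 0 of them in any of the 5 comparisons. At an unadjusted p under 0.05, 1 of the 4 passed for ethanol in WT and 1 for the difference of the ethanol effects, and 0 in the other 3 comparisons. The 3 tested inhibitors, Timp2, Timp3 and Reck, were also called in none, and 0 passed at an unadjusted p under 0.05. Among 10 tested members of the related ADAM and ADAMTS families, 3 were higher in KO cells without ethanol: Adamts4 (1.4 ± 0.29, adjusted p = 0.0055) and Adamts1 (1.04 ± 0.12, adjusted p = 2.6e-04), which cut proteoglycans, and the membrane protease Adam9 (0.51). Adamts1 (1.12) and Adam9 (0.36) were also higher in KO cells with ethanol, and with ethanol Adam9 fell by 0.48 in KO cells and fell by 0.33 in WT cells.

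Receptors that clear or sense these proteases, listed together with Furin, were called in both directions. Of the 9 genes tested, 4 were higher and 3 lower in KO cells without ethanol. Of all probe sets tested, 15.3% were called higher there and 16.9% lower. Lrp1, the endocytic receptor that takes up activator and inhibitor complexes, read 243 and 280 in KO cells against 778 and 767 in WT cells (-1.51 ± 0.11, adjusted p = 1.6e-05), although the other tested Lrp1 probe set was not called. F2r, a thrombin receptor, was lower (-0.98), and the integrin subunit gene Itgb1 (0.56) and Bsg (0.53), whose product is known to induce metalloproteinases, were higher. With ethanol, Bsg (1.11), Itgb1 (0.97) and Itga5 (0.92) were higher in KO cells and Lrp1 (-0.94) was lower. In KO cells ethanol raised F2r by 0.78, Lrp1 by 0.46, Furin, the convertase that activates membrane-type metalloproteinases, by 0.36, Serpinf2 by 0.69 and Serping1 by 0.35. Vldlr, another endocytic receptor, fell by 0.84 there and Serpinb6b fell by 1.32. In WT cells Serpinb6b fell by 0.59, Itgb1 fell by 0.58 and Bsg fell by 0.54, and the effect on Bsg was higher in KO than in WT cells by 0.58 ± 0.13 (adjusted p = 0.035). Not all probe sets of these genes gave the same call: 1 of 2 further probe sets of S100a10 and of Itgb1, 1 of 3 of Vldlr, and 0 of 1 of Vtn and of Kng1 were called in the same direction.

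**Figure D5:**
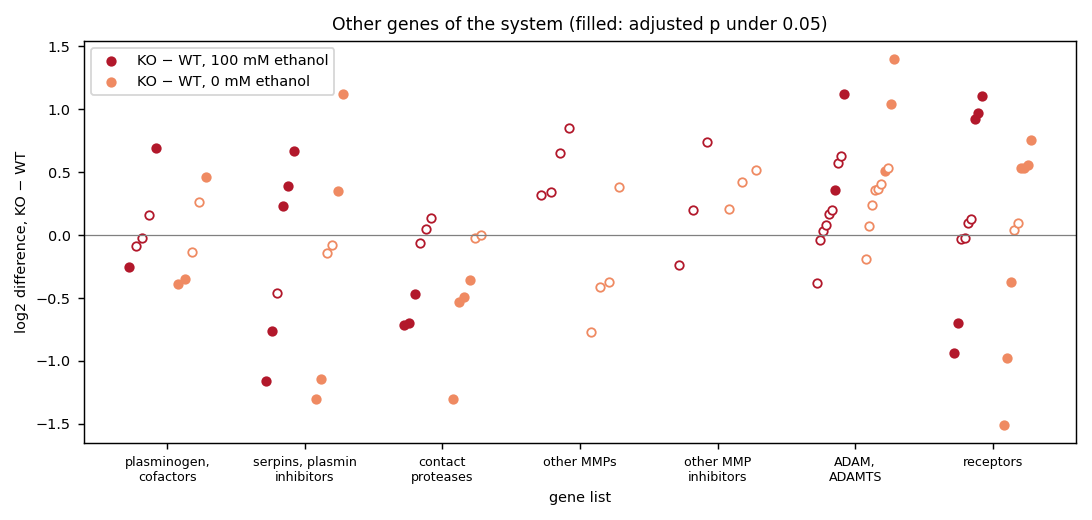
Log2 difference of KO minus WT (vertical axis) with 100 mM and with 0 mM ethanol for the 43 tested genes of the 7 other lists (horizontal axis), each point a gene. Filled points were called at an adjusted p under 0.05; the 4 other metalloproteinases and the 3 other metalloproteinase inhibitors are all open.

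Serpinb2, Mmp9 and Mmp13 are also genes of other liver cells, so markers of those cells were read on the same arrays. Of 12 macrophage markers, 11 were measured, and their summed intensity was 8670 and 8080 in KO with ethanol, 6840 and 7010 in WT with ethanol, 5990 and 6010 in KO without ethanol, and 4960 and 5290 in WT without ethanol. Without ethanol 1 of the 9 tested was higher in KO cells (Cd68, 1.5) and 3 were lower (Csf1r, Marco and Lyz2), while Cd163 was at most 7.76 on any array. Of 8 neutrophil markers, 7 were measured, with sums of 380 and 278, 283 and 201, 254 and 245, and 278 and 253 in the same order of groups. Camp and S100a9 were at most 3.13 and 11.4, and of the 3 tested 0 were called and 0 had an unadjusted p under 0.05 between the genotypes.

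Stellate cell and fibroblast markers (10 of 10 measured) summed to 788 and 469 in KO with ethanol, 449 and 267 in WT with ethanol, 535 and 576 in KO without ethanol, and 442 and 336 in WT without ethanol, and 1 of 5 tested was higher in KO cells without ethanol (Dcn, 1.53). The endothelial sums (9 of 9) were 666 and 643, 638 and 638, 668 and 813, and 568 and 492 in that order, with 1 of 8 tested higher (Cdh5, 0.97). The cholangiocyte sums (5 of 6) were 905 and 769, 356 and 318, 1120 and 1030, and 461 and 434, carried by Sox9 (1.66), while Krt7 and Cftr were at most 25.5 and 6.05. Of the 8 hepatocyte markers, 2 were higher and 4 lower in KO cells without ethanol, the widest being Hnf4a (-1.36). The macrophage, stellate cell and fibroblast, endothelial and cholangiocyte sums were each higher in KO than in WT cells without overlap, with and without ethanol. A sum can be carried by its brightest markers, and the median log2 differences of the tested markers did not all share this direction. Without ethanol these medians were -0.24, -0.37, 0.22 and 0.39 in that order, and with ethanol 0.08, 0.54, -0.075 and 1.2. Serpinb2, Plaur, Plat, Mmp9 and Timp1 were also higher in KO cells without overlap in both comparisons. So were 33.7% of all probe sets tested without ethanol and 27% with it, each comparison taken alone. The neutrophil sums overlapped between the genotypes with ethanol and without it. The part of other cell types, of array brightness and of RNA length in these differences was not tested.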

How the data were processed

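The authors deposited linear signal intensities from 8 one-colour Affymetrix arrays, each with 45101 probe sets, 64 of them controls. Per the labels' protocols, total RNA was turned into biotin-labelled cRNA. Which array software and scaling made the values, and on which genome build, is not given in the sources used here. Detection calls were not used. On WT with ethanol B, 5410 values (12%) were unusable, 5403 of them exact zeros, and their probe sets were left out, which left 39627.

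From these intensities, arrays were quantile normalised and transformed as log2(intensity + 16). Tests covered the brighter 50% of probe sets by mean log2 value (at least 5.4), 19814 in all. limma 3.58.1 in R 4.3.3 fitted 4 group means to all 8 arrays with an intensity trend (4 residual and 5.43 prior degrees of freedom), with Benjamini-Hochberg adjustment in each of 5 comparisons. The fit was tested on simulated data. Probe sets were named through the platform annotation: 34958 had 1 symbol, 932 several and 9211 none.

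The members and the gene lists were chosen with earlier results of these data known. The comparisons of genotypes give each probe set of each member, and the ethanol comparisons give further probe sets only for some genes. Of the listed genes of the system, up to 4 called genes per list are named for each comparison of genotypes, those with the smallest adjusted p, and every called gene for the ethanol comparisons. The 3 profiles most like each tested member are named, and marker genes were singled out after their values were seen. Alternatives were offsets of 64 and 1, no filter, the brightest 30% of probe sets, trimmed-mean scaling, 1 probe set per gene, no intensity trend, only the groups compared, unusable values kept as missing, the B arrays with ethanol left out or counted as untreated, the replicate letter or the spike-in ratio class (split at 2) as a term, the dim KO arrays left out, and each array left out in turn. The number of arrays limits the precision throughout.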

Additional observations from a re-analysis of the deposited data

Results flagged for a closer look

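The ethanol effects of 2 genes differed between the genotypes by a test of that difference in limma. For Serpinb2 the effect in KO minus the effect in WT was -2.4 on the log2 scale (SE 0.52, adjusted p = 0.032), with -3.77 and -2.57 on the KO arrays A and B and -0.85 and -0.7 on the WT arrays A and B. For Plaur it was 0.56 (SE 0.13, adjusted p = 0.035), with -0.19 and -0.27 on the KO arrays and -0.9 and -0.68 on the WT arrays. Each of these 4 arrays per gene was lower with ethanol than without it. Serpinb2 passed the intensity filter through its level in KO cells without ethanol. With no filter neither gene was called (adjusted p = 0.071 for Serpinb2 and 0.059 for Plaur). The Serpinb2 values of WT cells lie around and below the offset of 16, which bounds how far they can fall on this scale.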

How the results depend on the processing

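The 19 calls of single members kept their sign under every alternative that gave a value. Across all member results, 725 alternative values kept the sign and the call, 59 lost a call, 24 gained one, and 15 uncalled values changed sign. Calls were lost in 11 of 21 alternatives for Serpinb2 between genotypes with ethanol, in 10 of 19 and 10 of 20 for the Serpinb2 and Plaur differences of effects, in 6 of 21, 5 of 22 and 3 of 21 for Mmp14 (ethanol in KO, and KO against WT with and without ethanol), in 4 of 21 for Plaur without ethanol and in 3 of 20 for Mmp24 with ethanol in KO. Serpinb2, Plat, Mmp9 and Mmp13 lost 0 between genotypes without ethanol, and the other 7 calls lost 1 each, with the B arrays counted as untreated. Leaving out 1 array at a time, 4 to 7 members were called for KO against WT without ethanol, 3 to 6 with ethanol, 3 to 5 for ethanol in KO, 1 to 4 for ethanol in WT, and 0 to 4 for the difference of the ethanol effects, where 6 of the 8 omissions gave 0 calls in limma and 3 members at an unadjusted p under 0.05. With 1 array left in a group, that array is assumed to vary like the other groups.

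For the difference of the ethanol effects, 2 members were called, against 3 with an offset of 64, 1 with an offset of 1, 0 with no filter (4 at an unadjusted p under 0.05), 0 with no intensity trend (3), 1 among the brightest 30% of probe sets and 4 without the B arrays with ethanol. Among the brightest 30%, which no longer hold the dimmer members, 3 were called for KO against WT without ethanol, 3 with ethanol, 1 for ethanol in KO and 2 for ethanol in WT. Ethanol in WT also gave 2 with trimmed-mean scaling and 2 with the spike-in ratio class as a term. With the B arrays counted as untreated, limma called 0 members with ethanol (3 at an unadjusted p under 0.05), 0 for ethanol in KO (3), 0 for ethanol in WT (0) and 0 for the difference of the effects (2). The cause was not tested in these cases other than the 30% filter.

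Uncalled values changed sign as follows. Without both B arrays, KO minus WT with ethanol was -0.2 for Mmp13 and the difference of effects -0.13 for Plat. With them counted as untreated, these were -0.2 and -0.21, and Mmp9 gave 0.04 for the difference of effects. Leaving out 1 array at a time, KO minus WT with ethanol ran between -0.13 and 1.02 for Mmp13 (below 0 without KO with ethanol B) and between -1.37 and 0.23 for Mmp24 (above 0 without KO with ethanol A, and also 0.23 without all dim KO arrays). Ethanol in KO ran between -0.09 and 0.41 for Timp1. The difference of effects ran between -0.05 and 0.14 for Plat and between -0.11 and 0.13 for Mmp14.

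With the replicate block (array letter as a term), 6, 5, 5, 1 and 2 members were called in the 5 comparisons, the same counts as without it, and no member's call changed. Deviations of arrays with the same letter correlated at 0.0218 to 0.302. The 3 pairs above 0.1 (0.204 to 0.302) lie among the A arrays of the lower spike-in ratio, and since not every pair passed 0.1 the letter was not taken to pair the arrays. The compared groups alone cannot give the difference of effects, and without the dim KO arrays only KO against WT with ethanol (6 members) and ethanol in WT (1) could be fitted. Over all probe sets, the number called ranged from 3972 to 8130 (6394 as reported) for KO against WT without ethanol, 1367 to 7524 (5770) with ethanol, 380 to 7479 (4394) for ethanol in KO, 0 to 2088 (1105) for ethanol in WT and 0 to 4380 (1061) for the difference of the effects; both counts of 0 came from counting the B arrays as untreated and had 752 and 2401 probe sets at an unadjusted p under 0.05. Genes as dim as Plau cannot be read from these arrays.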
